A study of Mus musculus with 10 samples.

Results

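Cytochrome P450 genes of the mouse colon were described across 10 RNA-seq libraries of C57BL/6 mice. The set held 9 P450 genes (Cyp2e1, Cyp2f2, Cyp2c55, Cyp2c65, Cyp2c66, Cyp2c68, Cyp1a1, Cyp1b1 and Cyp2s1) and Por, which encodes the reductase that serves them. Its 10 genes were chosen by name and were found in 11 transcript rows, out of 23473 gene rows in all. FPKM (fragments scaled to the length of the transcript and the size of the library) was summed over the transcripts of a gene, so levels of different genes are on a scale per length. There were 5 groups with 2 libraries each, called replicate 0 and replicate 1 in their titles. Control mice were injected with saline at an age of 6 weeks and ate the AIN-93M diet. Model mice were injected with the colon carcinogen azoxymethane (AOM) at 10 mg/kg at that age, later drank dextran sulfate sodium (DSS), which injures the colon lining, at 1.2% for 7 days, and ate AIN-93M too. Mice of the ASA, CUR and ASA+CUR groups had AOM and DSS in the same way, with a diet that held 0.02% aspirin (ASA), 2% curcumin (CUR), or 0.01% aspirin and 1% curcumin together. AOM and DSS were always given together, so their effects cannot be told apart. The tissue of the 4 AOM/DSS groups is labelled as tumour and that of Control as colon, while the protocol describes colon frozen after palpable tumours and the proximal end had been removed.

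P450 enzymes are haem proteins of the endoplasmic reticulum that insert an oxygen atom into drugs, carcinogens, steroids and fatty acids, with electrons passed from NADPH by the reductase that Por encodes. In the gut the 2C enzymes oxidise arachidonic acid and other fatty acids, and enzymes of family 1 are made when the aryl hydrocarbon receptor (AhR) is bound by a ligand. CYP2E1 is known for the oxidation of AOM and its products to the reactive form that alkylates DNA.

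The libraries summed to between 515959 and 720895 FPKM, and 12781 to 13283 genes reached 1 FPKM in each. Read numbers are not part of an FPKM table. Of all genes, 14061 reached 1 FPKM in at least 2 libraries and were tested with limma on log2(FPKM + 1). Of the 10 genes of the set 7 were tested, and Cyp1a1, Cyp1b1 and Cyp2c66 were too low. Separate mice are not stated for the replicates, so a p-value here covers the spread of these libraries alone. Markers of all epithelium summed to 7742 and 8902 FPKM in Control and 5514 to 12480 in the AOM/DSS libraries, and none of the 8 tested changed. Libraries of 1 diet group stood apart from each other: the distal colon factor Hoxd13 was at 75.7 and 0.0566 FPKM in the ASA libraries and at 0.0323 and 71.6 in the CUR libraries.

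**Figure D1:**
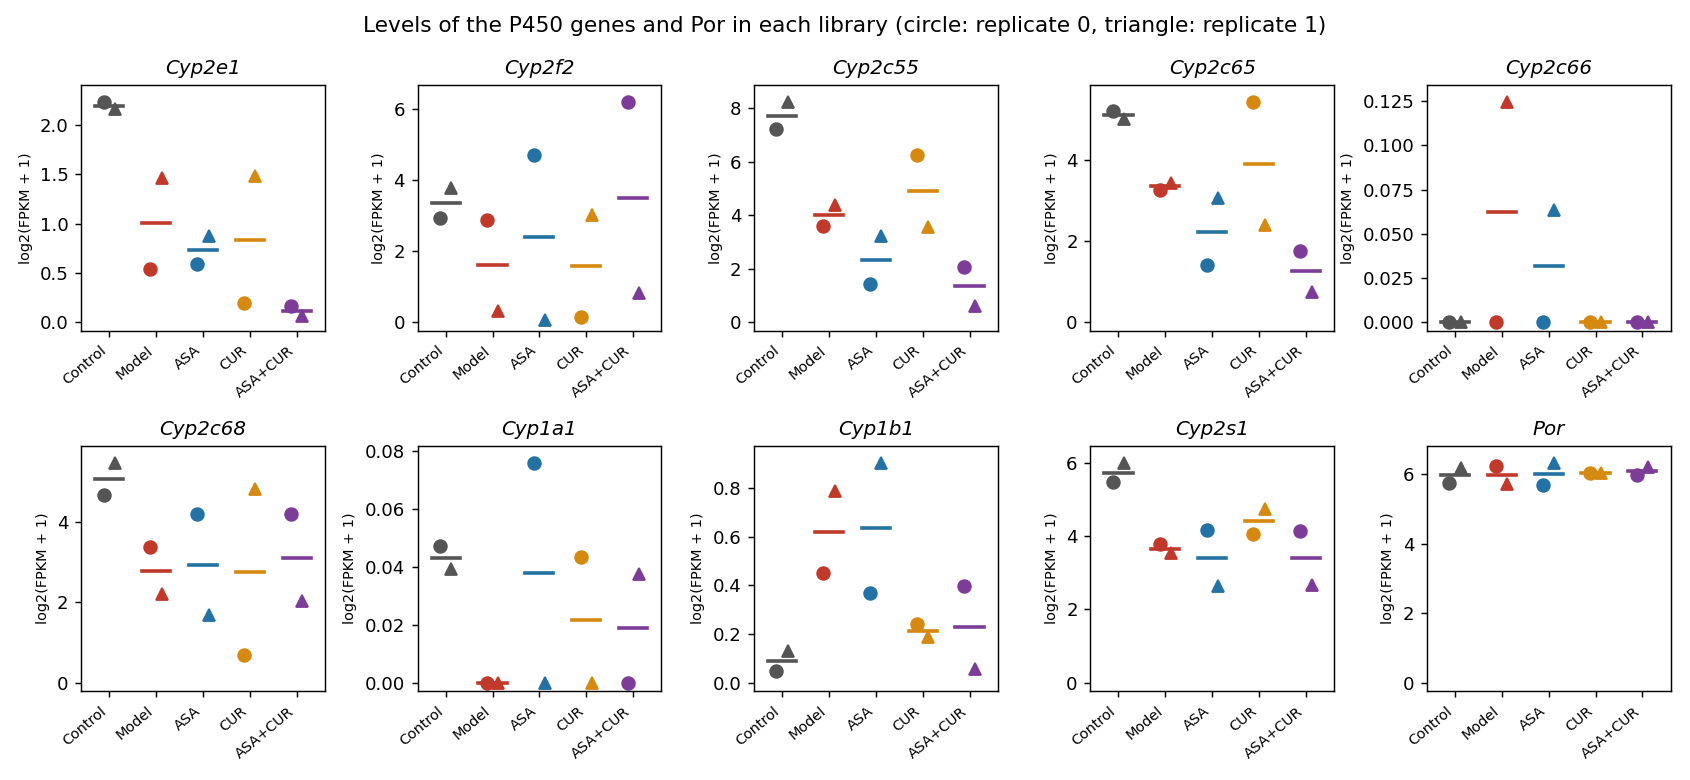
Level of each gene in each library as log2(FPKM + 1), with a scale of its own per panel. Circles are replicate 0, triangles are replicate 1 and bars are means of 2 libraries. Cyp2c55, Cyp2e1 and Cyp2s1 have both Control libraries above all 8 AOM/DSS libraries, Por lies between 50.3 and 78.2 FPKM everywhere, and Cyp1a1 and Cyp2c66 stay under 0.1 FPKM.

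Cyp2c55, Cyp2c65, Cyp2c66 and Cyp2c68 lie in a cluster of 2C genes on chromosome 19 (GRCm38). Their spans are chr19:39006940-39042690 for Cyp2c55, chr19:39061006-39093948 for Cyp2c65, chr19:39113898-39186756 for Cyp2c66 and chr19:39688836-39741101 for Cyp2c68. The 250 bases before the RefSeq start of each gene (RefSeq, GRCm38.p6, strand of the gene, 5′ to 3′) are shown because these neighbours had very different levels in the same libraries. The start is the one used in the RefSeq promoter table. For Cyp2c55 it lies inside the span given above, so its window overlaps that span. Capitals mark CAAAGTCCA, letters that the epithelial factor HNF4A binds, and CACGC, the reverse complement of the core GCGTG of the AhR element. The Cyp2c55 window is chr19:39006769-39007018 (plus strand), that of Cyp2c65 chr19:39060756-39061005 (plus), that of Cyp2c66 chr19:39113648-39113897 (plus) and that of Cyp2c68 chr19:39741102-39741351 (minus).
Cyp2c55: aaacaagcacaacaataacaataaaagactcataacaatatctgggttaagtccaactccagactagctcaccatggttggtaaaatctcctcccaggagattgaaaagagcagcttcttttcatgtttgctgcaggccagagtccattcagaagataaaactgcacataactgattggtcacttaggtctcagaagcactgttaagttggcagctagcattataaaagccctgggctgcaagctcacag
Cyp2c65: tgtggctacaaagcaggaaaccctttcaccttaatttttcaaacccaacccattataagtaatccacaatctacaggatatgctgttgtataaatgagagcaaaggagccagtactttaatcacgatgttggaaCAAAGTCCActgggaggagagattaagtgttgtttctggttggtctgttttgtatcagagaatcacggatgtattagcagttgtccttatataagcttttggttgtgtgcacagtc
Cyp2c66: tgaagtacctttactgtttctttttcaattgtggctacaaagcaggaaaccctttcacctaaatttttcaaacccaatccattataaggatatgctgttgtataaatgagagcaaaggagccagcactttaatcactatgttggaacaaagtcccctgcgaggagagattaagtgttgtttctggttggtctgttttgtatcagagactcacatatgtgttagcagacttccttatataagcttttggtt
Cyp2c68: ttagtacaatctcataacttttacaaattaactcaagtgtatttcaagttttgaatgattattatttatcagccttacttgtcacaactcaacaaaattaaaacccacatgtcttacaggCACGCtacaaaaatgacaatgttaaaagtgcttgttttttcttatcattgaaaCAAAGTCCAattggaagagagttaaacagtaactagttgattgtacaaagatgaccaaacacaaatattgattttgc

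The letters CAAAGTCCA, on either strand, occurred in 126 of 32851 windows of that length (0.384%). They were found 116 bases before the start of Cyp2c65 and 77 bases before that of Cyp2c68. The window of Cyp2c55, which had the highest level of the 4 genes in Control, held no match. The letters were chosen after the sequences had been seen, so the share of 0.384% does not tell how unusual these matches are. In the aligned Cyp2c66 window the letters read CAAAGTCCC, a change written A9C with positions counted from the 5′ end of the motif in Cyp2c65. The windows of Cyp2c65 and Cyp2c66 were 94.1% identical over 221 aligned bases, and their coding sequences 96.3% identical over 1473. Of 1424 runs of 50 bases in the Cyp2c66 coding sequence, 369 also occurred in Cyp2c65, so the split of fragments between these 2 genes is uncertain. Other pairs of the 4 shared no such run, with coding identities of 72.3% to 76.0%. A match of letters is a description and not a binding site.

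Cyp2c55, an arachidonic acid oxidase of the colon, had the highest level of the P450 genes of the set in both Control libraries. It measured 149.71 and 297.34 FPKM in Control, 11.2 and 19.9 in Model, 1.71 and 8.32 in ASA, 74.9 and 10.7 in CUR, and 3.19 and 0.515 in ASA+CUR. Both Control libraries were above all 8 AOM/DSS libraries, and CUR replicate 0 was the nearest to them. By group mean the order was Control (224 ± 104, SD, n = 2), CUR (42.8 ± 45.4), Model (15.5 ± 6.16), ASA (5.01 ± 4.67) and ASA+CUR (1.86 ± 1.90). The CUR libraries spanned those of Model, and the ASA and ASA+CUR libraries overlapped. In Control it ranked 681st and 324th among all genes by FPKM, and in ASA+CUR 10938th and 13648th.

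Cyp2c65, another intestinal enzyme that oxidises arachidonic acid, measured 35.9 and 30.9 FPKM in Control, 8.61 and 9.78 in Model, 1.64 and 7.25 in ASA, 41.6 and 4.25 in CUR, and 2.36 and 0.681 in ASA+CUR. In 7 of 8 AOM/DSS libraries it was below both Control libraries, and CUR replicate 0 was above both. Cyp2c66, its close copy, was listed at 0 in 8 libraries and at 0.0900 and 0.0450 FPKM in Model replicate 1 and ASA replicate 1. Cyp2c68, a further gene of the cluster, measured 24.2 and 42.7 FPKM in Control, 9.34 and 3.57 in Model, 17.1 and 2.21 in ASA, 0.607 and 27.1 in CUR, and 17.2 and 3.06 in ASA+CUR. It was low in CUR replicate 0, where Cyp2c55 and Cyp2c65 were high. In 7 of 8 AOM/DSS libraries Cyp2c68 was below both Control libraries, and CUR replicate 1 lay between them. All 8, a stricter count, were below both for 20.3% of all tested genes. The share with 7 of 8, as for Cyp2c65 and Cyp2c68, was not counted.

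Cyp2s1, a P450 gene of lining epithelia (chr7:25802469-25816525), measured 43.8 and 62.9 FPKM in Control, 12.8 and 10.6 in Model, 17.1 and 5.23 in ASA, 15.8 and 25.7 in CUR, and 16.8 and 5.34 in ASA+CUR. All 8 AOM/DSS libraries were below both Control libraries. Cyp2e1, the gene of the enzyme that activates AOM (chr7:140763819-140774990), was low throughout. It measured 3.70 and 3.49 FPKM in Control, 0.456 and 1.76 in Model, 0.507 and 0.838 in ASA, 0.143 and 1.79 in CUR, and 0.116 and 0.0428 in ASA+CUR. Here too all 8 AOM/DSS libraries were below both Control libraries, as for 20.3% of all tested genes. The ASA+CUR libraries were the lowest 2 of the 10, at values near 0 and near the 0.143 of CUR replicate 0. How many tested genes have that order was not counted. Cyp2e1 did not pass between ASA+CUR and Model (limma, adjusted p = 0.514).

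Cyp2f2, best known in the club cells of the airway, where its enzyme activates naphthalene (chr7:27119955-27133660), had libraries of 1 group that differed most. It measured 6.57 and 12.7 FPKM in Control, 6.33 and 0.239 in Model, 25.1 and 0.0397 in ASA, 0.0906 and 7.01 in CUR, and 71.4 and 0.772 in ASA+CUR. It was below both Control libraries in 5 of 8 AOM/DSS libraries and above both in 2, so the groups overlapped. The club cell gene Scgb1a1 was listed at 0 in all 10 libraries.

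Cyp1a1 (chr9:57687928-57703824) and Cyp1b1 (chr17:79706940-79715061) encode the enzymes that oxidise polycyclic hydrocarbons and, for Cyp1b1, estradiol. Both are known as targets of AhR. Their windows are shown because they hold GCGTG, the core of the AhR element, in capitals (CACGC where it is on the other strand). The Cyp1a1 window is chr9:57697363-57697612 (plus) and the Cyp1b1 window chr17:79715062-79715311 (minus), both 250 bases before the start used in the RefSeq promoter table (GRCm38.p6). For Cyp1a1 that start lies well inside the gene span given above, not at its first base.
Cyp1a1: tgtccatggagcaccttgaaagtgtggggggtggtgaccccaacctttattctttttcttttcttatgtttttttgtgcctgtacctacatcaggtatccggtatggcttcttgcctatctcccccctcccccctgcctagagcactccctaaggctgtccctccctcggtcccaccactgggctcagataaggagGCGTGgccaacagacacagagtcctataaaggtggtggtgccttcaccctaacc
Cyp1b1: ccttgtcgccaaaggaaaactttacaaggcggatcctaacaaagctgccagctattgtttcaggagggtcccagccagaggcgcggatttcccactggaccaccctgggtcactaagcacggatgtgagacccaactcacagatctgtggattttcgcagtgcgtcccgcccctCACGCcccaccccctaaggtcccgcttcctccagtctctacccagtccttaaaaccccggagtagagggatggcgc

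GCGTG occurred on either strand in 28.2% of all 32851 windows, so a match is common. The windows of Cyp1a1, Cyp1b1 and Cyp2c68 held 1 match each and that of Por held 3. Cyp1a1 was at or under 0.0538 FPKM in every library and was listed at 0 in 5 of them, both Model libraries among these. Cyp1a2, its neighbour in function, was at or under 0.0381 FPKM. Cyp1b1 measured 0.0328 and 0.0948 FPKM in Control, 0.365 and 0.725 in Model, 0.292 and 0.867 in ASA, 0.180 and 0.137 in CUR, and 0.316 and 0.0403 in ASA+CUR. In 7 of 8 AOM/DSS libraries it was above both Control libraries, but no library reached 1 FPKM. All 8, a stricter count, were above both for 20.1% of tested genes, among which Cyp1b1 is not. The share with 7 of 8 was not counted. Tested without the filter on low values, Cyp1b1 differed by 0.53 ± 0.20 (log2 and SE) between Model and Control (limma, adjusted p = 0.130) and by 0.33 ± 0.16 over the 4 AOM/DSS groups (adjusted p = 0.162), which did not pass.

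Por (chr5:135670040-135735326), whose enzyme passes electrons from NADPH to every P450 of the endoplasmic reticulum, measured 52.7 and 71.2 FPKM in Control, 73.7 and 51.8 in Model, 50.3 and 78.2 in ASA, 63.6 and 63.7 in CUR, and 61.9 and 71.8 in ASA+CUR. The libraries of every AOM/DSS group overlapped those of Control or lay between them. Por measured 0.200 and 0.158 FPKM per FPKM of the 9 P450 genes in Control, 1.50 and 1.11 in Model, 0.792 and 3.15 in ASA, 0.477 and 0.829 in CUR, and 0.556 and 6.85 in ASA+CUR. That ratio was above both Control values in all 8 AOM/DSS libraries. Cyp2c55 made up 56.73% and 66.05% of the 9-gene sum in Control. The ratio thus repeats the lower P450 levels given above and is not a separate result.

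Model was set against Control, both on the plain diet. The AOM/DSS tissue is labelled tumour and that of Control colon. The tissue sampled therefore cannot be told apart from AOM with DSS in any comparison with Control. Cyp2c55 and Cyp2s1 fell, which is 2 of the 10 genes of the set and 2 of the 7 tested. Over all 14061 tested genes 16.2% changed, 9.34% fell and 6.84% rose. Both Model libraries were below both Control libraries for 6 of the 7 tested (all but Por) and for 32.2% of all tested genes. On the log2(FPKM + 1) scale Cyp2c55 fell by 3.73 (SE 0.95, limma, adjusted p = 0.0351). Cyp2s1 fell by 2.08 (SE 0.59, limma, adjusted p = 0.0499). Both calls changed with the setting. For Cyp2c55 the adjusted p was 0.0559 with a pseudocount of 0.1, 0.0542 without the filter, 0.0519 with the replicate block, and 0.0921 to 0.200 when any of the 4 Control and Model libraries was left out. For Cyp2s1 it was between 0.0535 and 0.0734 with a pseudocount of 0.1, no filter, quantile normalisation, no intensity trend or the replicate block, 0.0555 and 0.0557 without either CUR library, and 0.121 to 0.243 without any of the 4 Control and Model libraries.

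The other tested genes did not pass in that comparison. The log2 difference was -1.20 ± 0.44 for Cyp2e1 (limma, adjusted p = 0.102), -1.75 ± 0.91 for Cyp2c65 (0.232), -2.27 ± 1.38 for Cyp2c68 (0.304) and -1.76 ± 2.04 for Cyp2f2 (0.607), each with its SE. All 4 differences were negative. Cyp2e1 passed without either CUR library (adjusted p = 0.0372 and 0.0377), and Cyp2c65 and Cyp2c68 passed when only the 4 Control and Model libraries were fitted (0.00508 and 0.0320). For Por the difference was 0.01 with a 95% interval of -0.59 to 0.61.

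The mean of all 4 AOM/DSS groups was then set against Control, which uses 8 libraries but shares the Control and Model libraries with the first comparison. Cyp2c55, Cyp2c65, Cyp2e1 and Cyp2s1 fell, which is 4 of the 10 genes and 4 of the 7 tested. Over all tested genes 31.5% changed, 16.9% fell and 14.6% rose. Cyp2c55 fell by 4.59 on the log2 scale (SE 0.75, limma, adjusted p = 0.00327). Cyp2c65 fell by 2.42 (SE 0.72, adjusted p = 0.0361), Cyp2s1 by 2.02 (SE 0.47, adjusted p = 0.0141) and Cyp2e1 by 1.53 (SE 0.34, adjusted p = 0.0124). Cyp2c55, Cyp2e1 and Cyp2s1 had all 8 AOM/DSS libraries below both Control libraries, which held for 20.3% of all tested genes.

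Most of these calls needed both Control libraries. Without Control replicate 1 the adjusted p of Cyp2c55 was 0.0528 with a log2 difference of -4.10, and it passed in the other settings tried. Without Control replicate 0 or 1 it was 0.102 and 0.0943 for Cyp2e1, and 0.0729 and 0.139 for Cyp2s1. Cyp2c65 did not pass without the filter (0.0571), or without 1 of either Control library, either Model library, ASA replicate 0 or ASA+CUR replicate 1 (0.0507 to 0.198). Cyp2c68 (-2.16 ± 1.09, adjusted p = 0.165) passed without CUR replicate 1 (-2.68, adjusted p = 0.0405). Cyp2f2 (-1.09 ± 1.61, adjusted p = 0.637) and Por (0.06 ± 0.20, adjusted p = 0.859) did not pass in any setting.

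**Figure D2:**
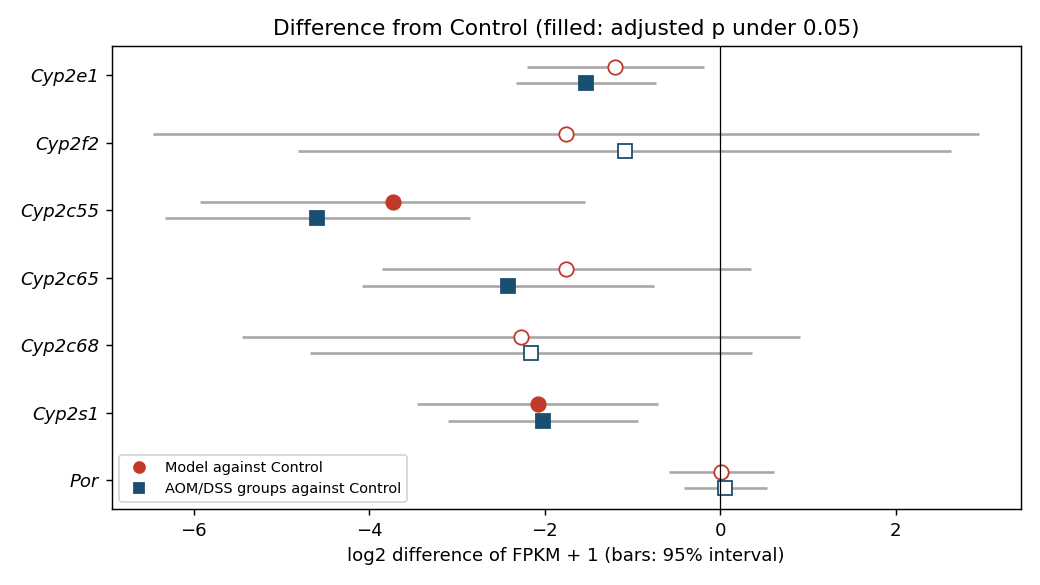
Difference from Control of the 7 tested genes on the log2(FPKM + 1) scale, for Model (circles) and the mean of the 4 AOM/DSS groups (squares). Bars are 95% intervals, and filled symbols have an adjusted p under 0.05. The symbols of Cyp2c55 lie at -3.73 and -4.59, and those of Por at 0.01 and 0.06.

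Markers of other cell types moved with the same groups. In bulk tissue fewer cells of a type and less RNA per cell cannot be told apart. Markers of absorptive colonocytes summed to 5757 and 5607 FPKM in Control and to 679 to 1558 in 7 AOM/DSS libraries, but to 5788 in CUR replicate 0, the AOM/DSS library with the most Cyp2c55 and Cyp2c65. Of those 8 markers 4 fell in Model, and all 7 goblet cell markers tested fell (15230 and 22730 FPKM summed in Control, 2057 to 8960 in AOM/DSS). Fabp2, a fatty acid carrier of enterocytes, measured 738 and 445 FPKM in Control, 412 in CUR replicate 0 and 5.18 to 69.4 in the other AOM/DSS libraries. It did not pass in Model (limma, adjusted p = 0.135) but fell over the 4 AOM/DSS groups (limma, adjusted p = 0.0152). Its list of 5 small intestine enterocyte genes had 2 tested, of which 0 fell in Model and 1 fell over the 4 groups. All 10 smooth muscle markers fell in Model (5684 and 9357 FPKM summed in Control, 301.8 to 914.6 in the AOM/DSS libraries) and so did 3 of 5 tested adipocyte markers (128 and 130.2 FPKM summed, against 13.3 to 110.2). Of the neutrophil markers 4 of 6 rose, with sums of 2.35 and 4.62 FPKM in Control and 76.8 to 596 in AOM/DSS, and over the 4 AOM/DSS groups 5 rose. Macrophage markers summed to 140.7 and 197 FPKM in Control and 291 to 714 in AOM/DSS, and 1 of 6 rose in Model and 5 over the 4 groups. Of 8 fibroblast markers 4 rose and none fell in Model, and 5 rose and 2 fell over the 4 groups (477 and 550.4 FPKM summed in Control, 568 to 1214 in AOM/DSS). Squamous markers rose in 1 of 9 tested in Model and in 5 over the 4 groups (1.03 and 1.74 FPKM summed, against 15.0 to 846). The 5 hepatocyte genes summed to 9.11 and 13.5 FPKM in Control and 6.97 to 121 in AOM/DSS, with 1 of 2 tested higher in Model and Fgb and Fga listed at 0 in all libraries. Per 1000 FPKM of epithelial markers, Cyp2c55 measured 19.3 and 33.4 FPKM in Control and 0.0672 to 6.00 in the AOM/DSS libraries. All 8 AOM/DSS libraries were below both Control libraries before this scaling too, as for 20.3% of all tested genes. The epithelial sums themselves overlapped between Control and AOM/DSS. No scaling to the absorptive colonocyte sum was made. The part of these cell types in the P450 results was not tested further.

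Aspirin, curcumin and their combination were each set against Model, and the combination against each agent alone. Doses were not matched, since the combined diet had less of either agent than the single diets. These comparisons share the Model or ASA+CUR libraries. No P450 gene of the set and not Por passed in any of the 5. Few genes of any kind passed: 2 against Model for ASA (0.0142% of those tested), 1 for CUR (0.00711%) and 2 for ASA+CUR (0.0142%). None passed for ASA+CUR against ASA or against CUR (0% in limma), where 399 and 1944 genes had an unadjusted p under 0.05.

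Cyp2c55 had the largest log2 differences of the tested genes of the set when the combination was set against Model and against CUR. It measured 3.19 and 0.515 FPKM in ASA+CUR, 11.2 and 19.9 in Model, and 74.9 and 10.7 in CUR. How many of all tested genes part these groups in the same way was not counted. Against CUR the log2 difference was -3.57 ± 0.95 (95% interval -5.76 to -1.37, limma, unadjusted p = 0.00570 and adjusted p = 0.299). Against Model it was -2.66 ± 0.95 (interval -4.86 to -0.46, adjusted p = 0.458), and against ASA -0.99 ± 0.95 (interval -3.19 to 1.20, adjusted p = 1). Cyp2c65 differed by -2.65 ± 0.91 against CUR (adjusted p = 0.329) and by -2.10 ± 0.91 against Model (adjusted p = 0.496). Cyp2e1 differed by -0.89 ± 0.44 between ASA+CUR and Model (adjusted p = 0.514).

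The CUR comparison depended on 1 library. Without CUR replicate 1, which left CUR replicate 0 alone and assumed to vary like the other groups, ASA+CUR against CUR gave -4.91 for Cyp2c55 (limma, adjusted p = 0.0226) and -4.16 for Cyp2c65 (adjusted p = 0.0189). In that setting 1956 genes passed, against none with both libraries. For ASA against Model the log2 differences ranged from -1.67 ± 0.95 for Cyp2c55 to 0.79 ± 2.04 for Cyp2f2, and for CUR against Model from -0.17 ± 0.44 for Cyp2e1 to 0.91 ± 0.95 for Cyp2c55. Their intervals were wide: that of Cyp2c55 for CUR against Model ran from -1.29 to 3.10 and that of Cyp2s1 (0.75 ± 0.59) from -0.62 to 2.12. For Por the 5 differences lay between 0.02 and 0.11, and the intervals stayed within -0.58 and 0.71.

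The balance among the 2C genes differed between libraries of a single group. Shares were taken of the summed FPKM of Cyp2c55, Cyp2c65, Cyp2c66 and Cyp2c68. Cyp2c55 made up 71.4% and 80.2% in Control, 38.3% and 59.7% in Model, and 8.34% and 46.7% in ASA. It made up 64.0% and 25.5% in CUR, and 14.0% and 12.1% in ASA+CUR. Cyp2c68 made up 11.5% in both Control libraries, 32.1% and 10.7% in Model, 83.6% and 12.4% in ASA, 0.519% and 64.4% in CUR, and 75.6% and 71.9% in ASA+CUR. Cyp2c68 was thus the main 2C gene in ASA replicate 0, CUR replicate 1 and both ASA+CUR libraries. Those 4 libraries also had the most Hoxd13, at 75.7, 71.6, 87.7 and 65.2 FPKM, against 3.52 and 1.86 in Control, 8.35 and 0.0850 in Model, 0.0566 in ASA replicate 1 and 0.0323 in CUR replicate 0. Hoxb13, another factor of the distal colon, did not part Control from those 4 libraries: it measured 186 and 270 FPKM in Control, 197 in ASA replicate 0, 296 in CUR replicate 1 and 180.3 and 183 in ASA+CUR, against 15.0 to 94.7 in the other 4. The 6 distal position genes summed to 217 and 298 FPKM in Control and to 296 to 400.0 in the 4 libraries. The Cyp2c68 share of 11.5% in Control thus did not go with the level of that list. The 6 proximal position genes summed to 6.95 and 4.73 FPKM in Control. Their sums were 1.505 to 5.29 FPKM in the 4 libraries and 2.30 to 5.97 in the other 4 AOM/DSS libraries, so these overlapped. The pattern of Hoxd13 was seen in the data and not planned, and the position of each piece along the colon is not given in the labels, so position cannot be told apart from the diet in ASA+CUR.

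**Figure D3:**
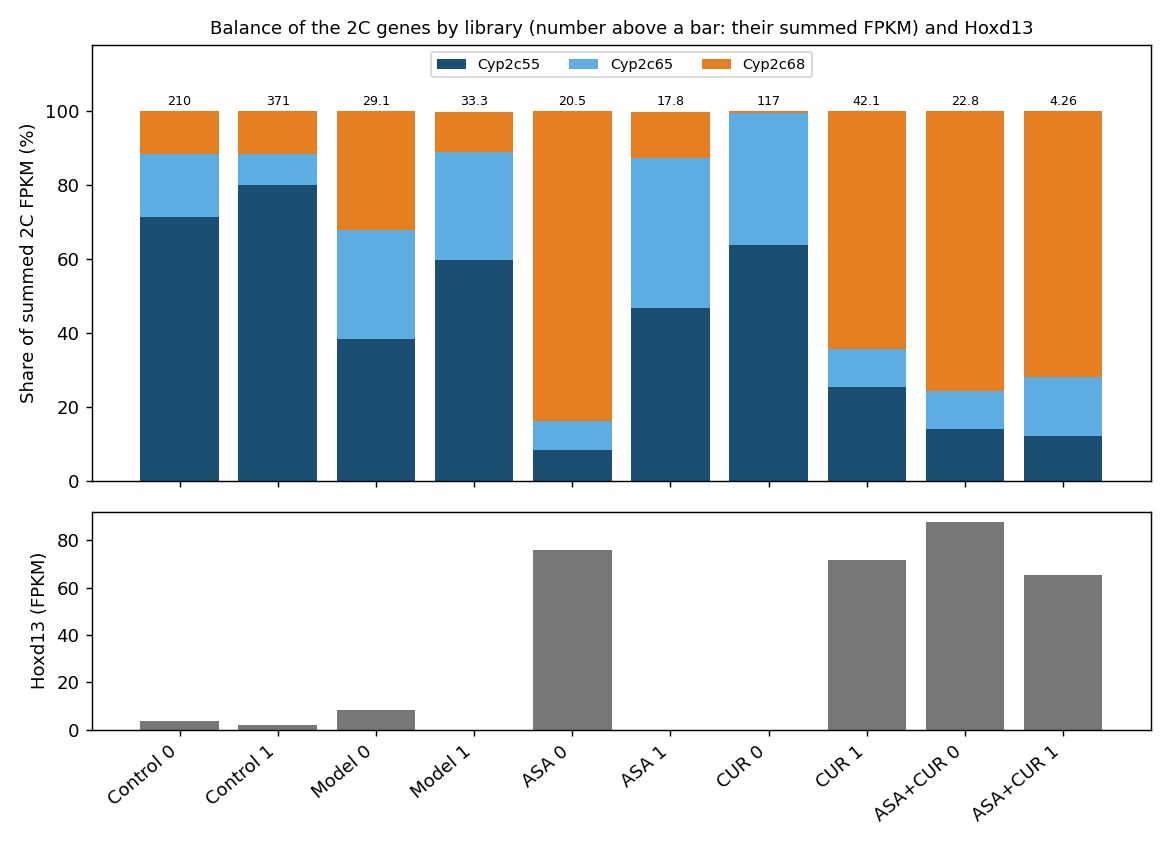
Upper panel: share of Cyp2c55, Cyp2c65 and Cyp2c68 in the summed FPKM of these genes and Cyp2c66 for each library, with that sum above each bar. Lower panel: FPKM of Hoxd13. Cyp2c68 holds 64.4% to 83.6% in the 4 libraries with Hoxd13 above 65 FPKM and at most 32.1% in the other 6.

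Cyp2f2 did not follow Hoxd13 alone. It was highest in ASA+CUR replicate 0 (71.4 FPKM) and ASA replicate 0 (25.1), the libraries in which the squamous keratin Krt5 measured 211.5 and 94.6 FPKM. In CUR replicate 1 and ASA+CUR replicate 1, with Hoxd13 at 71.6 and 65.2 but Krt5 at 0.0308 and 0.0663, Cyp2f2 measured 7.01 and 0.772 FPKM. In the 3 AOM/DSS libraries with Hoxd13 under 0.1 FPKM (Model replicate 1, ASA replicate 1 and CUR replicate 0) it measured 0.239, 0.0397 and 0.0906. The other squamous markers did not follow Cyp2f2 in the same way. Krt14 measured 95.2 FPKM in ASA+CUR replicate 1, 57.3 in ASA replicate 1 and 59.3 in CUR replicate 0, and the squamous list summed to 139, 98.1 and 105 FPKM there, with Cyp2f2 under 1 FPKM in each. Both Control libraries had Cyp2f2 at 6.57 and 12.7 with Krt5 at 0.161 and 0.0667. Cyp2c68 measured 17.1, 27.1 and 17.2 FPKM in ASA replicate 0, CUR replicate 1 and ASA+CUR replicate 0, but 3.06 in ASA+CUR replicate 1. Whether squamous or distal tissue in a piece accounts for these values was not tested.

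**Figure D4:**
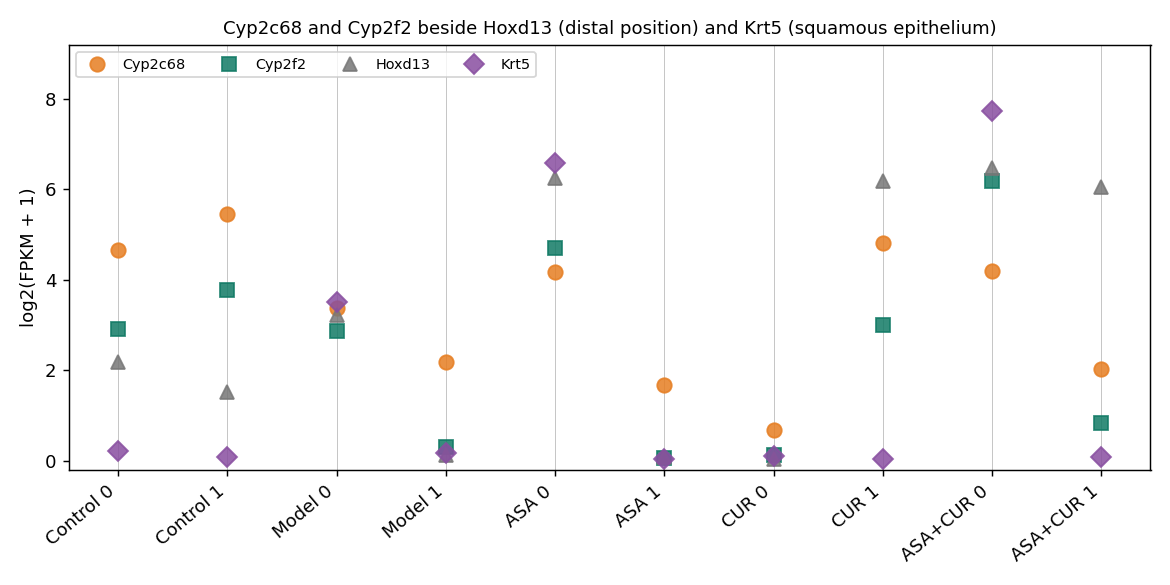
Cyp2c68, Cyp2f2, Hoxd13 and Krt5 in each library as log2(FPKM + 1). Cyp2f2 and Krt5 are both highest in ASA+CUR replicate 0 and ASA replicate 0, and all 4 genes are low in CUR replicate 0 (Cyp2c68 at 0.607 FPKM).

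Other P450 genes were taken from the table by name, 95 in all, of which 33 were tested. Against Control, 10 fell and 2 rose in Model, and 14 fell and 5 rose over the 4 AOM/DSS groups. Over all tested genes 9.34% fell and 6.84% rose in Model, and 16.9% fell and 14.6% rose over the 4 groups, so the counts that rose are near those shares. Their median log2 difference was -0.57 in Model, against 0.02 over all tested genes. Among those that fell in Model, Cyp2c69, another gene of the 2C cluster, went from 4.27 ± 1.42 to 0.224 ± 0.200 FPKM (SD, n = 2, limma log2 difference -2.09, adjusted p = 0.00250). Cyp2d9 went from 30.6 ± 7.39 to 3.55 ± 1.06 FPKM (adjusted p = 0.00419), Cyp3a13, of the family that handles many drugs, from 45.9 ± 3.77 to 9.05 ± 1.76 (adjusted p = 0.0105), and Cyp4b1, a fatty acid hydroxylase gene, from 3.95 ± 0.714 to 0.671 ± 0.0216 (adjusted p = 0.0117). Mouse 2C and 2D genes have close copies, so the split of fragments among these is uncertain. The 2 that rose, named after their values were seen, were Cyp21a1, a steroid 21-hydroxylase (0.0657 ± 0.0386 to 11.4 ± 3.91 FPKM, adjusted p = 0.0406), and Cyp4f18, a leukotriene hydroxylase of leukocytes (1.53 ± 0.852 to 5.23 ± 2.24, adjusted p = 0.0487).

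**Figure D5:**
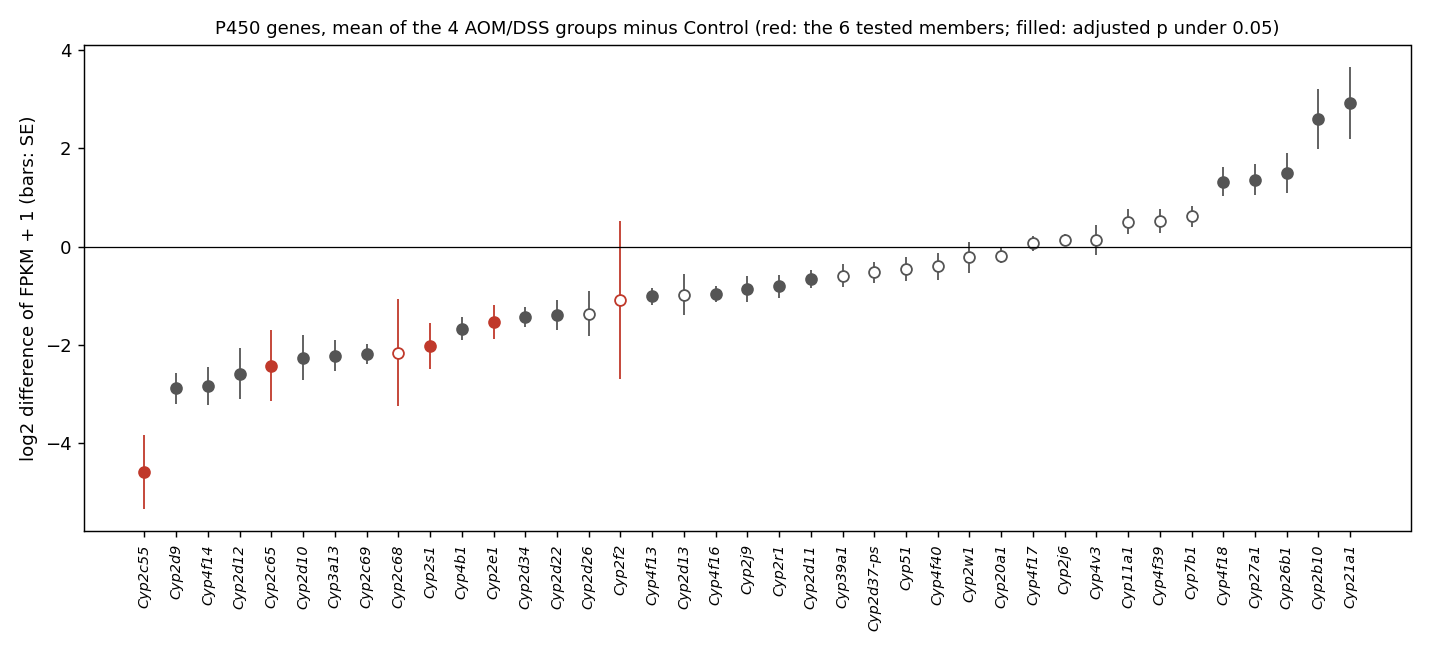
Difference of the mean of the 4 AOM/DSS groups from Control for all tested P450 genes, with SE bars. Red marks the 6 tested P450 genes of the set and filled symbols have an adjusted p under 0.05. Cyp2c55 has the most negative difference (-4.59), and Cyp21a1 the most positive.

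Regulators of P450 genes were measured in the same libraries. Of 11 nuclear receptors and other factors, 3 fell and none rose in Model, with a median log2 difference of -0.54, where 9.34% of all tested genes fell and 6.84% rose. They were Ppara, the receptor that drives fatty acid oxidation genes (4.68 ± 0.684 to 0.891 ± 0.0155 FPKM, limma, adjusted p = 0.00655), Vdr, the vitamin D receptor (84.7 ± 23.8 to 21.3 ± 1.12, adjusted p = 0.0388), and Nr1i2, the pregnane X receptor that senses drugs (27.4 ± 4.56 to 16.9 ± 1.76, adjusted p = 0.0499). Over the 4 AOM/DSS groups 6 fell and 1 rose, where 16.9% of all tested genes fell and 14.6% rose. Hnf4a measured 198 and 264 FPKM in Control and 108 to 180.0 in the AOM/DSS libraries, a log2 difference of -0.66 in Model (adjusted p = 0.0671) and of -0.68 over the 4 groups (adjusted p = 0.0162).

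Of the 10 AhR pathway genes 7 were tested, and 1 fell in Model, where 9.34% of all tested genes fell and 6.84% rose. Ugt1a6a, a glucuronosyltransferase gene, fell in Model (10.5 ± 3.54 to 1.93 ± 0.545 FPKM, limma, adjusted p = 0.0319), and none rose. It shares exons with other Ugt1a genes, so its split of fragments is uncertain. Ahr itself measured 5.73 and 5.99 FPKM in Control and 5.18 to 13.2 in the AOM/DSS libraries (log2 difference 0.40 ± 0.27 in Model, adjusted p = 0.352). Ahrr, the AhR repressor gene, was at or under 0.555 FPKM. The median log2 difference of the 7 was -0.17.

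The electron partners of P450 enzymes besides Por gave no call in Model among 7 tested (median log2 difference -0.19). Over the 4 AOM/DSS groups Pgrmc1, a haem protein that binds P450 enzymes (-0.68 ± 0.15, limma, adjusted p = 0.0106), and Fdx1, the ferredoxin of mitochondrial P450 enzymes (-0.68 ± 0.19, adjusted p = 0.0295), fell. That is 2 of 7, a count near the 16.9% of all tested genes that fell. Of 12 genes of haem synthesis and breakdown, 2 rose in Model and none fell (6.84% of all tested genes rose and 9.34% fell). Both act in breakdown. Hmox2 (log2 difference -0.32, limma, adjusted p = 0.181) and Blvra (0.12, adjusted p = 0.636), which act there too, did not pass. Hmox1, haem oxygenase, went from 3.72 ± 0.647 to 69.9 ± 56.1 FPKM (log2 difference 3.64, adjusted p = 0.0244) and Blvrb, a biliverdin reductase, from 36.1 ± 0.491 to 104.0 ± 16.3 (1.49, adjusted p = 0.00327). Of 4 epoxide hydrolases, which open the epoxides that P450 enzymes make, 1 fell in Model and 2 over the 4 AOM/DSS groups. Of all tested genes 9.34% and 16.9% fell in these comparisons. Ephx4 fell in Model (7.93 ± 0.480 to 3.10 ± 0.613 FPKM, limma, adjusted p = 0.0188). Ephx2, the soluble hydrolase of fatty acid epoxides, also fell over the 4 AOM/DSS groups (-1.58 ± 0.36, adjusted p = 0.0139).

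Genes with the most similar pattern were found by Pearson's r of log2(FPKM + 1) over the tested genes. These values describe libraries that share groups and scaling, and over 10 libraries they mix Control with AOM/DSS. For Cyp2c55 they were Eif4ebp3 (r = 0.985), Decr1 (0.983) and Gde1 (0.981) over 10 libraries, and Tmem98 (0.981), Mpst (0.981) and Eif4ebp3 (0.980) over the 8 AOM/DSS libraries. Eif4ebp3 measured 123 and 114 FPKM in Control and 71.9 in CUR replicate 0, against 11.7 to 34.5 in the other AOM/DSS libraries. For Cyp2e1 they were 2010315B03Rik (0.978), Atg13 (0.969) and Pdk2 (0.967) over 10 libraries, and 2010315B03Rik (0.982), Mfap1a (0.948) and 2810013P06Rik (0.944) over 8. For Cyp1b1, at levels under 1 FPKM, they included Elmo1 (0.943) and Pigl (0.938) over 10 libraries, and were Epdr1 (0.967), Lpl (0.941) and Cflar (0.939) over 8. Cyp1a1 was too near 0 for a pattern. For Cyp2c68 and Cyp2f2, looked up after their values were seen, Adh1 (0.977) and Ankrd35 (0.982) came first over 10 libraries. Adh1, an alcohol dehydrogenase gene, measured 237, 479 and 210.4 FPKM in ASA replicate 0, CUR replicate 1 and ASA+CUR replicate 0, the 3 AOM/DSS libraries with the most Cyp2c68, and 25.6 in CUR replicate 0.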

How the data were processed

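TruSeq libraries of total RNA were sequenced on a NextSeq instrument, per the labels' protocols. The authors deposited 1 table of FPKM, with RefSeq transcripts as rows and the 10 libraries as columns. Per the submitters' processing notes the tools were Cuffdiff (no version given in the sources used here), Bowtie2 2.1.0.0, TopHat2 2.0.9 and bcl2fastq 2.17.1.14, with the builds mm10 and GRCm38. Cuffdiff divides the fragments of a gene among transcripts by a model, so values are estimates, a 0 can be a failed estimate, and close copies share fragments. Strand and multi-mapping settings are not given in the sources used here.

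Of 30073 transcript rows, 29439 were named with RefSeq (GRCm38.p6), 183 with GENCODE and 451 stayed unnamed. FPKM was summed per gene, and the 14061 genes (180 unnamed) that reached 1 FPKM in 2 or more libraries were tested. The test was limma 3.58.1 in R 4.3.3 on log2(FPKM + 1) with an intensity trend and all 10 libraries in 1 fit (5 residual and 2.96 prior degrees of freedom), two-sided, with Benjamini-Hochberg adjustment over all tested genes and a threshold of 0.05. Differences understate the change of low genes. The depth in reads is unknown. Depth relative to Control replicate 0 was estimated from the most common ratio of transcript values under 0.1 FPKM, at 1.06 to 1.33. Only 15.4% to 19.2% of the transcripts compared lay within 0.05 log2 of that ratio, so these estimates are rough. The limma fit alone was tried on simulated data, with known log2 changes added to the Model libraries.

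The members and lists were chosen with earlier results of these data known. Of each list up to 4 genes that passed in Model against Control were named, by smallest p, besides all 10 members; other named genes were chosen after their values were seen. Replicate numbers did not pair the libraries. The other settings tried, 18 in all, are described at the end. A gene of similar pattern to Cyp1b1 is not reported here.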

Additional observations from a re-analysis of the deposited data

How the results depend on the processing

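The settings tried were a pseudocount of 0.1, no filter on low values, at least 5 FPKM in 2 libraries, median-ratio scaling, quantile normalisation, no intensity trend, only the compared groups in the fit, a replicate block, and each of the 10 libraries left out in turn. The median log2 difference of all genes stayed under 0.1 in each scaling. With 2 libraries in a group, leaving out 1 leaves a single library that is assumed to vary like the other groups.

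When a library was left out, counts of genes past the threshold ranged from 553 to 3073 for Model against Control (2276 with all libraries), with 1078 when Model replicate 1 was left out, 623 when Control replicate 0 was and 553 when Control replicate 1 was. For the AOM/DSS groups against Control they ranged from 1567 to 5417 (4435 with all), with 1662 and 1567 without Control replicate 0 and 1. They ranged from 0 to 3 for ASA against Model, from 0 to 3 for CUR against Model, from 0 to 4 for ASA+CUR against Model, from 0 to 1 for ASA+CUR against ASA and from 0 to 1956 for ASA+CUR against CUR, the last without CUR replicate 1. At 5 FPKM the counts were 1 for ASA, 0 for CUR and 0 for ASA+CUR against Model. With only the compared groups they were 0, 0 and 4, and 1 for ASA+CUR against either agent. CUR against Model had 0 genes with a pseudocount of 0.1, no filter, quantile normalisation and the replicate block. ASA+CUR against ASA had 2 without the filter, and ASA+CUR against CUR had 1 with a pseudocount of 0.1 and 1 without the trend.

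The replicate numbers were checked for pairing. Deviations of same-numbered libraries from their group means correlated between -0.21 and 0.33 over 10 pairs of groups, above 0.1 in 3. The numbers thus showed no pairing common to all groups. With 2 libraries in a group this check cannot exclude pairing. With the replicate block 2062 genes passed in Model against Control, 4262 for the AOM/DSS groups against Control, 2 for ASA against Model, and 0 for CUR and for ASA+CUR against Model. Cyp2c55 and Cyp2s1 lost their call in Model against Control there (adjusted p = 0.0519 and 0.0563).

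No called difference of a member changed sign. Uncalled ones did when a library was left out, with these lowest and highest log2 values. Por ran from -0.24 to 0.26 in Model against Control, -0.16 to 0.27 for the AOM/DSS groups against Control, -0.29 to 0.34 for ASA, -0.21 to 0.29 for CUR and -0.14 to 0.36 for ASA+CUR against Model, and -0.23 to 0.40 and -0.0395 to 0.17 for ASA+CUR against ASA and CUR. Cyp2c68 ran from -1.10 to 1.40 for ASA, -2.10 to 2.03 for CUR and -0.76 to 1.40 for ASA+CUR against Model, and -1.08 to 1.42 and -1.71 to 2.42 for ASA+CUR against ASA and CUR. Cyp2f2 ran, in the same order, from -1.54 to 3.11, -1.47 to 1.41, -0.77 to 4.59, -1.55 to 3.80 and -0.74 to 4.61. Cyp2s1 ran from -1.02 to 0.52 for ASA and -0.99 to 0.50 for ASA+CUR against Model, and -0.77 to 0.77 for ASA+CUR against ASA. Cyp2e1 ran from -0.73 to 0.19 for ASA and -0.81 to 0.48 for CUR against Model. For CUR against Model, Cyp2c55 ran from -0.44 to 2.25 and Cyp2c65 from -0.96 to 2.07, both negative without CUR replicate 0. Quantile normalisation turned CUR against Model for Cyp2c68 to 0.0918, Cyp2f2 to 0.0277 and Por to -0.0414. The cause of these changes was not tested.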
